A study of Homo sapiens with 12 samples.

Results

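The 10 genes described here encode secreted or secretory-pathway proteins of luminal and apocrine breast cells: AGR2, AGR3, TFF1, TFF3, PIP, AZGP1, MUCL1, SCGB2A2, CLU and LTF. They were taken by gene symbol from the 20531 genes listed for each library. The rule itself uses no measured value, but the genes were chosen with earlier results of these data known. The RNAseq data come from SKBR-3, an established human breast cancer line that is ER-negative with amplified HER2, in 12 libraries that form 4 groups of 3 replicates. All cells were transfected with siRNA for 48 h according to the labels, either with a non-targeting control (NT siRNA) or with siRNA against FOXA1, a pioneer transcription factor that opens chromatin at enhancers of luminal genes. Within each siRNA the cells received DMSO, the drug solvent, or 300 nM lapatinib, which inhibits the kinases EGFR and HER2, for 24 h. The groups are called NT DMSO, NT lapatinib, FOXA1-siRNA DMSO and FOXA1-siRNA lapatinib. A single cell line was used, and whether the replicates were separate cultures is not stated, so p-values measure only the spread between these samples. The design asks how each gene responded to HER2 inhibition, how it responded to loss of FOXA1, and whether the drug response differed when FOXA1 was depleted.

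AGR2 and AGR3 are members of the protein disulfide isomerase family in the endoplasmic reticulum, where AGR2 folds mucins and other secretory cargo. TFF1 and TFF3 are trefoil peptides, small secreted proteins of mucosal surfaces that are also classical estrogen-responsive genes of luminal breast cancer. PIP (also known as GCDFP-15), AZGP1 (zinc-alpha-2-glycoprotein) and MUCL1 (small breast epithelial mucin) are products of apocrine cells in the breast. SCGB2A2 (mammaglobin-A) is a secretoglobin that is largely restricted to breast epithelium, CLU (clusterin) is a secreted chaperone, and LTF (lactotransferrin) is an iron-binding protein of milk.

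Library totals were between 25749589 and 32271859 expected counts (median 30542430). FOXA1 normalized counts, scaled to a common library size, were between 8308 and 8767 in NT DMSO and between 1160 and 1564 in FOXA1-siRNA DMSO. In lapatinib-treated cells the counts were between 12170 and 13180 with NT siRNA and between 1642 and 2384 with FOXA1 siRNA. The siRNA groups did not overlap in either medium, so each library matched its siRNA label. The luminal markers KRT8, KRT18, KRT19, EPCAM, GATA3 and ERBB2 passed the count filter, and the 7 luminal markers summed to between 12200 and 18300 TPM (a level scaled for transcript length and library size), although CDH1 (E-cadherin) had a mean of at most 13.9 normalized counts in any group. The 7 basal markers summed to between 2.73 and 7.68 TPM, with both FOXA1-siRNA groups at 5.08 TPM or more. The sums were between 3.11 and 5.82 TPM for 7 fibroblast markers, between 16.0 and 43.5 TPM for 7 leukocyte markers and between 3.78 and 12.1 TPM for 3 endothelial markers. COL1A1 made most of the fibroblast sum, with group means between 3.21 and 5.2 TPM. CDH5 made most of the endothelial sum, with group means between 4.42 and 9.15 TPM. LUM of the fibroblast markers and MS4A1 of the leukocyte markers were at 0 in all 12 libraries, and between 3 and 5 of the 7 fibroblast markers stayed under 3 counts in each group. The leukocyte sum was higher in the lapatinib group than in the DMSO group of each siRNA. CD68 made most of that sum, with group means between 18.1 and 37.1 TPM, whereas PTPRC had group means of at most 4.05 normalized counts. The part of the basal and leukocyte markers in the results below was not tested.

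Replicate 2 stood apart in every group. The counts of replicate 2 differed from those of replicates 1 and 3 by a chi-square between 12.7 and 18.5 per degree of freedom, compared with between 3.75 and 5.94 for replicate 1 against replicate 3. AZGP1 and SCGB2A2 moved with it, since replicate 2 was their highest library in 4 of 4 groups, whereas it was the highest library of AGR2 in 0 of 4 groups. Several results that rest on replicate 2 are therefore also given with replicates 1 and 3 alone, and others only without a single library of that number.

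Because FOXA1 was depleted, the 250 bases before each start site in the RefSeq promoter set (GRCh38.p14) were searched for forkhead motifs. The set matched 7 of the 10 genes, with 3 start sites for LTF. The MUCL1 window, chr12:54854266-54854515, lies inside the gene interval given below for MUCL1. TFF1, TFF3 and CLU were not matched. The forkhead motifs GTAAACA and GTCAACA, on either strand, occurred upstream of 2 genes, PIP and SCGB2A2, and 4.84% of 35116 promoters of the same length hold one of them. The palindromic estrogen response element GGTCANNNTGACC occurred in 0 of the 7 and in 0.0399% of all promoters. The sequences of PIP and SCGB2A2 are shown because these genes hold the forkhead letters and moved in opposite directions after FOXA1 siRNA in lapatinib, and that of AGR2 because it fell with FOXA1 siRNA and holds no match. Each is written 5′ to 3′ along the strand of the gene and ends at the base before the start site, with the forkhead match in capitals. The PIP sequence is chr7:143131827-143132076 (plus strand) with the match from -122 to -116, the SCGB2A2 sequence is chr11:62269908-62270157 (plus strand) with the complement of GTAAACA from -102 to -96, and the AGR2 sequence is chr7:16805000-16805249 (minus strand). A match describes these letters only and does not show binding.
PIP: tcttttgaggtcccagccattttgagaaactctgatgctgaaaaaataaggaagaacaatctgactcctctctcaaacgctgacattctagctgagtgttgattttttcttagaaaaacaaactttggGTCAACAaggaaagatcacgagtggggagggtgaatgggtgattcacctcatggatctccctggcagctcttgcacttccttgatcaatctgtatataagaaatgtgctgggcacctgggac
SCGB2A2: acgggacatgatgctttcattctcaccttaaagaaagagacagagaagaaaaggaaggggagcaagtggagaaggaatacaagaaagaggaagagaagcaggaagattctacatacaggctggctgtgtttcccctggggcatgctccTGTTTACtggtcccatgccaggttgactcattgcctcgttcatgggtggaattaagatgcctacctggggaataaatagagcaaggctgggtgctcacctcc
AGR2: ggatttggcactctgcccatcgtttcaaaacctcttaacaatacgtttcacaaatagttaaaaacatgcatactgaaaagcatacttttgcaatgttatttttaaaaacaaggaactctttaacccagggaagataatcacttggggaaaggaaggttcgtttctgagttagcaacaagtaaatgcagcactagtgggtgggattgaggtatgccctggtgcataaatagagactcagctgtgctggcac

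Of the 10 genes, 8 passed the filter of at least 10 counts in at least 1 library, and these 8 had at least 10 counts in all 12 libraries. AGR3 and LTF did not pass. AGR3 had between 0 and 4 counts per library and 13 counts in all, of which 9 were in NT lapatinib, and it was at 0 in 5 libraries. LTF had between 0 and 3 counts and 10 counts in all, and it was at 0 in 6 libraries. AGR3 reached 3 counts, the limit that a count of 0 allows, in 2 libraries, and LTF reached it in 1. No gene of the set stayed under 3 counts in every library, so AGR3 and LTF are described as near the limit of detection, which at these depths was a level between 0.093 and 0.117 in CPM and covers counting error only. They were tested only when no filter on low counts was applied, where AGR3 was higher after lapatinib with NT siRNA (9 counts over 3 libraries against 1, adjusted p = 0.0463) and neither gene passed in any other comparison. No fold change is given for them at these counts. The expected counts of all 10 genes were whole numbers in all 12 libraries.

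Levels of different genes were compared as deposited TPM. In NT DMSO, CLU had the highest mean, 280 TPM ± 19.4 (SD, n = 3), and AGR2 had 272 ± 27.9 TPM, with ranges that overlapped. SCGB2A2 followed at 114 ± 71.3 TPM, then AZGP1 at 57.3 ± 24.9 TPM, TFF3 at 37.2 ± 9.21 TPM and TFF1 at 32.2 ± 3.77 TPM, each overlapping its neighbor in this order. MUCL1 at 6.35 ± 0.949 TPM and PIP at 4.93 ± 1.54 TPM were lowest among the 8, and their ranges also overlapped. AGR3 and LTF had means of 0.03 and 0.0167 TPM. The order changed between groups. In NT lapatinib PIP, at 26.8 ± 3.59 TPM, overlapped TFF3 and TFF1. In FOXA1-siRNA lapatinib SCGB2A2, at 628 ± 48.2 TPM, overlapped CLU at 613 ± 15.8 TPM, and both were separate from AGR2 at 98.6 ± 13.9 TPM.

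**Figure D1:**
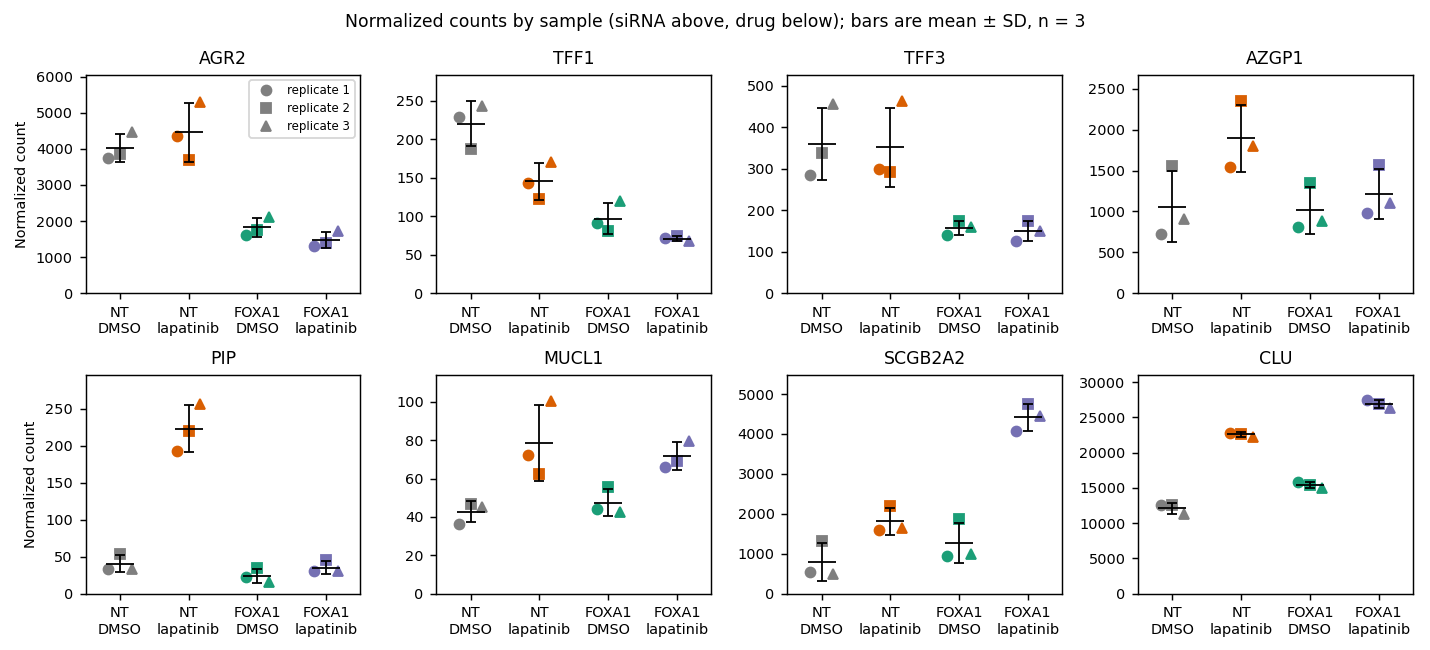
Normalized count (y axis, linear from 0) of 8 genes in each of the 12 libraries, by siRNA and drug (x axis). Symbols mark replicates 1 to 3, and black bars give the mean and SD (n = 3); the PIP values of NT lapatinib, between 192.6 and 256.5, lay above those of the other groups, whereas SCGB2A2 was highest in FOXA1-siRNA lapatinib, between 4069 and 4746.

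AGR2 fell after FOXA1 siRNA in both media, and whether it passed the test after lapatinib varied with the samples and the fit used. AGR2 (chr7:16791811-16804999, GRCh38.p14) had normalized counts of 3740, 3858 and 4473 in NT DMSO and of 1626, 1752 and 2127 in FOXA1-siRNA DMSO. In the lapatinib-treated cells AGR2 had 4358, 3702 and 5304 with NT siRNA and 1316, 1394 and 1724 with FOXA1 siRNA. The FOXA1-siRNA libraries were lower than the NT libraries with no overlap in either medium. AGR2 was 2.17-fold lower after FOXA1 siRNA in DMSO (log2 fold change -1.12, SE 0.11, adjusted p = 0.000161) and 3.03-fold lower in lapatinib (log2 fold change -1.60, SE 0.15, adjusted p = 8.01e-05), each by the quasi-likelihood test of edgeR with adjustment over all genes tested (Benjamini-Hochberg), which is behind every adjusted p given here unless DESeq2 is named. In such bulk samples, fewer cells that express a gene and less RNA per cell cannot be told apart.

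Lapatinib left AGR2 at a log2 fold change of 0.17 (SE 0.13, adjusted p = 0.277) with NT siRNA, higher in 2 of 3 replicate pairs. Leaving out NT lapatinib replicate 2 gave 0.29 (adjusted p = 0.0381), as did replicates 1 and 3 alone at 0.24 (adjusted p = 0.0461). With FOXA1 siRNA the change was -0.30 (SE 0.12, adjusted p = 0.0652). The replicate numbers paired the samples, and within the 3 pairs the change was -0.30, -0.33 and -0.30, and AGR2 passed the test in the blocked fit at -0.30 (adjusted p = 9.68e-05). DESeq2 gave -0.31 (adjusted p = 0.0275), and without FOXA1-siRNA DMSO replicate 1 or FOXA1-siRNA lapatinib replicate 3 the adjusted p was 0.0437 and 0.0197. AGR3 lies 49.7 kb from AGR2 on chromosome 7 and, as given above, had no library above 4 counts.

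The trefoil genes TFF1 and TFF3, which lie 46.9 kb apart on chromosome 21 (chr21:42362282-42366535 and chr21:42311667-42315409), both fell after FOXA1 siRNA. TFF1 had normalized counts of 229.5, 187.4 and 243.5 in NT DMSO and 90.93, 80.95 and 119.9 in FOXA1-siRNA DMSO. In lapatinib it had 143.9, 122.3 and 170.3 with NT siRNA and 71.29, 74.00 and 67.55 with FOXA1 siRNA. The 4 groups of TFF1 formed a descending order without overlap between any pair of groups compared. FOXA1 siRNA lowered TFF1 2.24-fold in DMSO (log2 fold change -1.16, SE 0.17, adjusted p = 0.00126) and 2.06-fold in lapatinib (log2 fold change -1.04, SE 0.16, adjusted p = 0.00117).

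TFF3 had normalized counts of 284.7, 338.1 and 455.4 in NT DMSO and 140.9, 174.9 and 159.0 in FOXA1-siRNA DMSO. In lapatinib the values were 300.8, 293.2 and 462.7 with NT siRNA and 127.1, 174.9 and 150.5 with FOXA1 siRNA. The NT and FOXA1-siRNA libraries did not overlap, while the DMSO and lapatinib libraries did. TFF3 was 2.25-fold lower after FOXA1 siRNA in DMSO (log2 fold change -1.17, SE 0.18, adjusted p = 0.00152) and 2.35-fold lower in lapatinib (log2 fold change -1.23, SE 0.20, adjusted p = 0.00171). Some of these calls lay close to the fold minimum: without NT lapatinib replicate 3 the changes in lapatinib were -0.91 for TFF1 and -0.98 for TFF3, and without NT DMSO replicate 3 the change of TFF3 in DMSO was -0.97, with adjusted p of 0.00508, 0.00299 and 0.00346.

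After lapatinib with NT siRNA, TFF1 passed the test and TFF3 did not. TFF1 fell with NT siRNA (log2 fold change -0.58, SE 0.16, adjusted p = 0.0136), lower in 3 of 3 pairs, whereas TFF3 had a change of -0.01 (SE 0.22, adjusted p = 0.983). This difference between the genes was not tested. With FOXA1 siRNA, TFF1 changed by -0.45 (SE 0.18, adjusted p = 0.0609), again lower in 3 of 3 pairs, and it passed the test with the replicate block at -0.43 (adjusted p = 0.0387), in a single model of all 12 samples (adjusted p = 0.048), with replicates 1 and 3 alone (-0.60, adjusted p = 0.0284) and without FOXA1-siRNA DMSO replicate 2 (adjusted p = 0.0264). TFF3 had -0.06 (SE 0.15, adjusted p = 0.75). ESR1, the estrogen receptor that drives both genes in ER-positive cells, had between 14.02 and 39.5 normalized counts as group means in these ER-negative cells, and rose after lapatinib with NT siRNA (log2 fold change 1.24, SE 0.28, adjusted p = 0.00486). ESR1 also rose after lapatinib with FOXA1 siRNA (1.49, SE 0.23, adjusted p = 0.00065).

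PIP rose after lapatinib in NT cells and was lower with FOXA1 siRNA under the drug, the largest changes of the set in those 2 comparisons. PIP (chr7:143132077-143139739) had normalized counts of 33.49, 53.55 and 33.55 in NT DMSO and 192.6, 219.7 and 256.5 in NT lapatinib. FOXA1-siRNA cells had PIP counts of 22.98, 34.43 and 15.23 in DMSO and 29.96, 45.17 and 30.71 in lapatinib. The 3 NT lapatinib libraries were above the 9 others, which overlapped among themselves. Lapatinib raised PIP 5.62-fold with NT siRNA (log2 fold change 2.49, SE 0.22, adjusted p = 3.06e-05), higher in 3 of 3 pairs.

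Under lapatinib, PIP was 6.32-fold lower with FOXA1 siRNA than with NT siRNA (log2 fold change -2.66, SE 0.20, adjusted p = 3.1e-05). In DMSO the change was -0.71 (SE 0.34, adjusted p = 0.13), lower in 3 of 3 pairs, and it passed the test with the replicate block at -0.73 (adjusted p = 0.0166) and without FOXA1-siRNA DMSO replicate 2 at -1.07 (adjusted p = 0.0465). In FOXA1-depleted cells lapatinib changed PIP by 0.55 (SE 0.32, adjusted p = 0.178), by 0.56 with the block (adjusted p = 0.0523), and by 0.90 without FOXA1-siRNA DMSO replicate 2 (adjusted p = 0.0452). The lapatinib response of PIP differed between the siRNAs, with a difference of log2 fold changes of -1.93 (SE 0.40, adjusted p = 0.0148; -1.94 and adjusted p = 0.00188 with the block). The interaction kept its direction without each library in turn, from -2.19 to -1.58, with an adjusted p of at most 0.0432.

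AZGP1 rose after lapatinib with NT siRNA and was lower with FOXA1 siRNA under the drug, with log2 fold changes under 1 in size. Without the replicate block, these calls depended on single libraries. AZGP1 (chr7:99966730-99976031) had normalized counts of 726.0, 1553 and 902.1 in NT DMSO and 1546, 2343 and 1794 in NT lapatinib. With FOXA1 siRNA it had 811.4, 1342 and 889.0 in DMSO and 981.6, 1562 and 1100 in lapatinib. The groups overlapped in all 4 comparisons, and replicate 2 was the highest library of each group. Within pairs, the log2 change of AZGP1 after lapatinib was 1.09, 0.59 and 0.99 with NT siRNA and 0.27, 0.22 and 0.31 with FOXA1 siRNA.

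The log2 fold change of AZGP1 after lapatinib with NT siRNA was 0.86 (SE 0.27, adjusted p = 0.0237). DESeq2 gave an adjusted p of 0.0502, and without NT DMSO replicate 1, NT DMSO replicate 3 or NT lapatinib replicate 2 it was 0.0654, 0.0794 and 0.0696. With the replicate block the change was 0.90 (adjusted p = 0.000152), and with replicates 1 and 3 alone it was 1.05 (adjusted p = 9.11e-06). After FOXA1 siRNA in lapatinib it was -0.65 (SE 0.19, adjusted p = 0.0262), lower in 3 of 3 pairs. The adjusted p of this change was 0.0772 in a single model of all 12 samples, 0.0624 and 0.0516 without NT lapatinib replicate 2 or 3, and 0.0909 and 0.0901 without FOXA1-siRNA lapatinib replicate 1 or 3. Neither FOXA1 siRNA in DMSO (-0.05, SE 0.30, adjusted p = 0.905) nor lapatinib with FOXA1 siRNA (0.27, SE 0.22, adjusted p = 0.319) passed the test. The latter passed with the replicate block at 0.27 (adjusted p = 0.000553), with replicates 1 and 3 alone at 0.29 (adjusted p = 0.0107), and without FOXA1-siRNA DMSO replicate 2 at 0.52 (adjusted p = 0.0424).

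MUCL1 (chr12:54830681-54858387) rose after lapatinib with either siRNA and did not pass the test after FOXA1 siRNA. MUCL1 normalized counts were 36.45, 46.60 and 45.06 in NT DMSO and 72.52, 62.62 and 100.5 in NT lapatinib. FOXA1-siRNA cells had 43.97, 55.83 and 42.83 in DMSO and 66.13, 69.20 and 79.84 in lapatinib. The lapatinib libraries were above the DMSO libraries with no overlap for each siRNA. Lapatinib raised MUCL1 by a log2 fold change of 0.90 (SE 0.23, adjusted p = 0.00995) with NT siRNA and 0.60 (SE 0.18, adjusted p = 0.0185) with FOXA1 siRNA. The second call was lost without FOXA1-siRNA DMSO replicate 1 (adjusted p = 0.0634), FOXA1-siRNA DMSO replicate 3 (adjusted p = 0.062) or FOXA1-siRNA lapatinib replicate 3 (adjusted p = 0.068). FOXA1 siRNA gave 0.17 (SE 0.20, adjusted p = 0.532) in DMSO and -0.14 (SE 0.21, adjusted p = 0.613) in lapatinib.

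SCGB2A2 rose after lapatinib and, in contrast to AGR2, TFF1, TFF3, PIP and AZGP1, was higher with FOXA1 siRNA under the drug. SCGB2A2 (chr11:62270158-62273160) had normalized counts of 532.9, 1332 and 494.7 in NT DMSO and 1603, 2193 and 1636 in NT lapatinib. With FOXA1 siRNA it had 952.3, 1858 and 998.5 in DMSO and 4069, 4746 and 4448 in lapatinib. The FOXA1-siRNA lapatinib libraries were above all others, while the DMSO groups of both siRNAs overlapped, with replicate 2 the highest library of each group.

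Lapatinib raised SCGB2A2 2.33-fold with NT siRNA (log2 fold change 1.22, SE 0.35, adjusted p = 0.0164) and 3.5-fold with FOXA1 siRNA (log2 fold change 1.81, SE 0.23, adjusted p = 0.000251). The call with NT siRNA was lost without NT DMSO replicate 1 (adjusted p = 0.0546) and was below the fold minimum without NT DMSO replicate 3 (0.96, adjusted p = 0.0481). In the fit with the replicate block the change with NT siRNA was 1.34 (adjusted p = 0.000496). With replicates 1 and 3 alone the changes with NT and FOXA1 siRNA were 1.67 (adjusted p = 1.92e-08) and 2.13 (adjusted p = 9.2e-07). FOXA1 siRNA raised SCGB2A2 2.43-fold in lapatinib (log2 fold change 1.28, SE 0.12, adjusted p = 9.17e-05). In DMSO the change was 0.70 (SE 0.42, adjusted p = 0.208), higher in 3 of 3 pairs, and it passed the test with the replicate block at 0.76 (adjusted p = 4.93e-05), with replicates 1 and 3 alone at 0.94 (adjusted p = 2.5e-06) and without NT DMSO replicate 2 at 1.33 (adjusted p = 0.00649).

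SCGB1D2 (lipophilin B, the partner of mammaglobin-A) and SCGB2A1 (mammaglobin-B) lie 25.3 kb and 56.2 kb from SCGB2A2 and are described as its neighbors, a choice made after their values were seen. SCGB1D2 had normalized counts between 6.90 and 20.8 in NT DMSO, 57.5 and 79.5 in NT lapatinib, 36.0 and 60.5 in FOXA1-siRNA DMSO, and 210.8 and 247.7 in FOXA1-siRNA lapatinib. It rose after lapatinib with NT siRNA (log2 fold change 2.46, SE 0.36, adjusted p = 0.000474) and with FOXA1 siRNA (2.34, SE 0.19, adjusted p = 2.74e-05). It also rose after FOXA1 siRNA in DMSO (1.84, SE 0.40, adjusted p = 0.0073) and in lapatinib (1.72, SE 0.15, adjusted p = 6.69e-05). SCGB2A1 was low, with group means between 3.92 and 19.8 normalized counts. Its changes were 1.51 (SE 0.57, adjusted p = 0.0482) and 1.30 (SE 0.37, adjusted p = 0.0151) after lapatinib with NT and FOXA1 siRNA, and 1.02 (adjusted p = 0.156) and 0.80 (adjusted p = 0.146) after FOXA1 siRNA in DMSO and lapatinib.

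**Figure D2:**
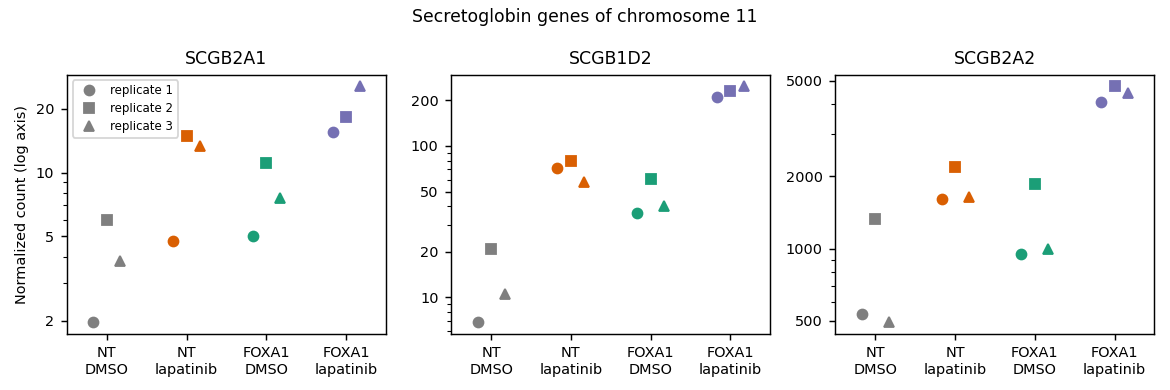
Normalized counts (y axis, log scale, with a range of its own in each panel) of 3 secretoglobin genes on chromosome 11 in the 12 libraries, by siRNA and drug (x axis), with symbols for replicates 1 to 3. SCGB1D2 and SCGB2A2 were highest in the 3 FOXA1-siRNA lapatinib libraries, at 210.8 to 247.7 and 4069 to 4746.

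CLU was higher after lapatinib and, by a smaller amount, after FOXA1 siRNA. Its normalized counts were 12510, 12580 and 11240 in NT DMSO and 22800, 22690 and 22200 in NT lapatinib. FOXA1-siRNA cells had 15810, 15430 and 15030 in DMSO and 27380, 26840 and 26260 in lapatinib. The 4 groups did not overlap in any comparison. Lapatinib raised CLU by a log2 fold change of 0.92 (SE 0.06, adjusted p = 6.72e-06) with NT siRNA and 0.81 (SE 0.04, adjusted p = 2.88e-06) with FOXA1 siRNA. FOXA1 siRNA raised it by 0.36 (SE 0.05, adjusted p = 0.00109) in DMSO and 0.24 (SE 0.04, adjusted p = 0.00148) in lapatinib. All 4 were below the fold minimum of 1, and all 4 kept an adjusted p under 0.05 without each library in turn. CLU lies on chromosome 8.

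Counted over the set, lapatinib raised 2 of the 8 tested genes with NT siRNA (PIP and SCGB2A2) and lowered 0 when a call required a log2 fold change of at least 1 or at most -1 and an adjusted p under 0.05, where 6.64% and 7.13% of 13713 genes were called higher and lower. Without the fold minimum, 5 rose and 1 fell, against 30.5% and 29.2% of all genes. The median log2 fold change of the 8 was 0.88, and 0.03 over all genes tested. With replicates 1 and 3 alone 4 genes were called higher, AZGP1 and MUCL1 being added. Here and below, the shares of all genes come from the fit of all replicates without the block and were not counted in other fits.

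FOXA1 siRNA in DMSO lowered 3 of 8 (AGR2, TFF1 and TFF3) and raised 0, where 2.77% and 4.06% of 13694 genes were called lower and higher. Without the fold minimum the counts were 3 lower and 1 higher, against 21.3% and 21.9%. With the replicate block they were 4 lower and 2 higher, PIP and SCGB2A2 being added, and no share of all genes was counted in that fit. The median of the 8 was -0.38, and -0.01 over all genes tested. In lapatinib FOXA1 siRNA lowered 4 of 8 (AGR2, TFF1, TFF3 and PIP) and raised 1 (SCGB2A2), where 3.90% and 4.51% of 13727 genes were called. Without the minimum 5 fell and 2 rose, against 22.2% and 22.7%, with a median of -0.84 for the 8 and -0.01 over all genes tested. The number called lower was 2 without NT lapatinib replicate 3.

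With FOXA1 siRNA, lapatinib raised 1 of 8 (SCGB2A2) and lowered 0, where 4.93% and 5.12% of 13745 genes were called. Without the fold minimum 3 rose and 0 fell, against 29.0% and 29.1%. With the replicate block, where no share of all genes was counted, AGR2 and TFF1 were added as lower and AZGP1 as higher. The median was 0.41, and 0.01 over all genes tested. By edgeR, AGR2 and TFF1 were lower in this comparison with an unadjusted p under 0.05, and DESeq2 gave 1 lower gene, AGR2. NT DMSO and NT lapatinib each enter a drug comparison and an siRNA comparison, so these counts are not independent.

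**Figure D3:**
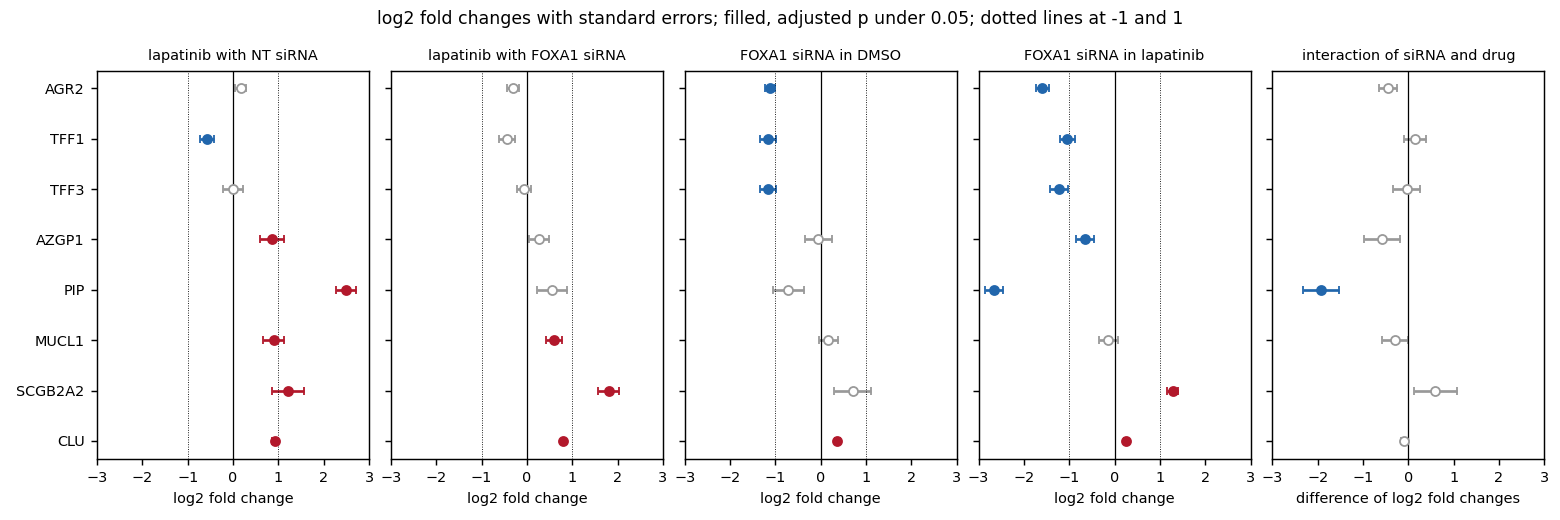
log2 fold change (x axis) of 8 genes in 4 comparisons, and in the last panel the difference of the lapatinib responses of FOXA1-siRNA and NT cells. Bars are standard errors, filled red and blue points are higher and lower at an adjusted p under 0.05, open gray points did not pass, and dotted lines mark -1 and 1; AGR2, TFF1 and TFF3 were at or below -1.04 after FOXA1 siRNA in both media.

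Between siRNAs the lapatinib response differed for 1 of 8 genes, PIP, where 3.20% and 3.99% of 14012 genes had a lower or higher log2 fold change with FOXA1 siRNA at an adjusted p under 0.05. With the replicate block 3 genes passed, since AGR2 had a difference of -0.45 (adjusted p = 0.00284) and AZGP1 of -0.61 (adjusted p = 0.00223), compared with -0.46 (SE 0.20, adjusted p = 0.196) and -0.58 (SE 0.40, adjusted p = 0.446) without it. The shares of all genes given above are from the fit without the block. They were not counted with the block or with replicates 1 and 3 alone. With replicates 1 and 3 alone, PIP (-2.08, adjusted p = 0.00484), AZGP1 (-0.75, adjusted p = 0.00698) and SCGB2A2 (0.47, adjusted p = 0.00444) passed. For SCGB2A2 the difference from all 12 libraries was 0.59 (SE 0.47, adjusted p = 0.521), and it was -0.02 (adjusted p = 0.982) without NT DMSO replicate 2. CLU, MUCL1, TFF1 and TFF3 had differences of -0.10 (SE 0.06), -0.29 (SE 0.29), 0.14 (SE 0.25) and -0.04 (SE 0.30), with adjusted p between 0.403 and 0.967.

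**Figure D4:**
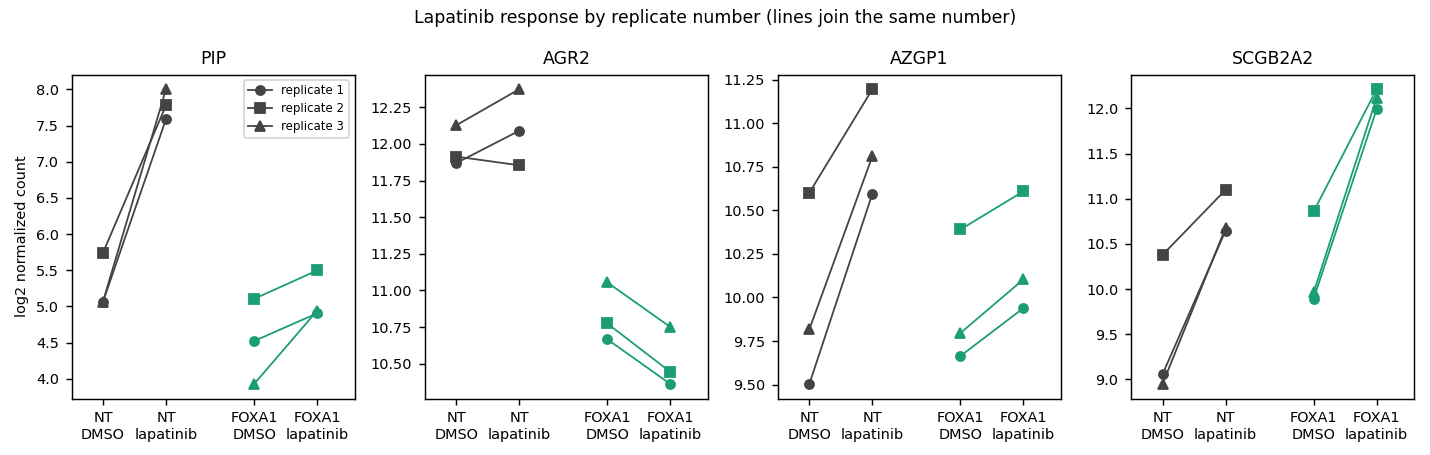
log2 normalized count (y axis, with a range of its own in each panel) of PIP, AGR2, AZGP1 and SCGB2A2 in DMSO and lapatinib, with lines that join libraries of the same replicate number, for NT siRNA (gray) and FOXA1 siRNA (green). The PIP lines rise by 2.04 to 2.93 with NT siRNA and by 0.38 to 1.01 with FOXA1 siRNA, and the AGR2 lines fall by 0.30 to 0.33 with FOXA1 siRNA.

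Other products of secretory breast cells were counted from a list of 24 genes, of which 8 or 9 passed the filter in each comparison. The list includes SCGB1D2 and SCGB2A1, described above. Both are among the genes raised by lapatinib with either siRNA, and SCGB1D2 is among those raised by FOXA1 siRNA in both media. Lapatinib raised 5 of 8 with NT siRNA and 6 of 9 with FOXA1 siRNA at an adjusted p under 0.05 and lowered 0 in both, with medians of 0.91 and 0.71. Over all genes tested, that threshold called 30.5% higher and 29.2% lower with NT siRNA and 29.0% and 29.1% with FOXA1 siRNA. FOXA1 siRNA raised 5 of 9 in DMSO and 6 of 9 in lapatinib and lowered 1 in each, with medians of 1.02 and 1.32, where all genes gave 21.9% higher and 21.3% lower in DMSO and 22.7% and 22.2% in lapatinib. The medians over all genes tested, given above for each comparison, lay between -0.01 and 0.03. LCN2 (lipocalin 2, an iron-siderophore binding protein) had normalized counts of 145.8, 242.9 and 147.6 in NT DMSO and 715.5, 874.6 and 578.7 in FOXA1-siRNA DMSO. LCN2 rose by 2.03 (SE 0.23, adjusted p = 0.000336) after FOXA1 siRNA in DMSO and by 1.78 (SE 0.23, adjusted p = 0.000439) in lapatinib. APOD (apolipoprotein D) rose after lapatinib with NT siRNA by 1.11 (SE 0.20, adjusted p = 0.00139) and fell by 1.02 after FOXA1 siRNA in lapatinib (adjusted p = 0.000583). Below the fold minimum APOD also rose after lapatinib with FOXA1 siRNA (0.71, adjusted p = 0.00154) and fell after FOXA1 siRNA in DMSO (-0.62, adjusted p = 0.0357). PIGR, the receptor that carries immunoglobulin A into secretions, rose by 1.32 after FOXA1 siRNA in lapatinib (SE 0.41, adjusted p = 0.0315) and by 1.32 after lapatinib with FOXA1 siRNA (SE 0.37, adjusted p = 0.0155).

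The molecular apocrine list, 16 genes of steroid hormone response and apocrine lipid metabolism, had 11 or 12 genes that passed the filter. At an adjusted p under 0.05, lapatinib raised 7 of 12 and lowered 1 with NT siRNA, and raised 7 of 12 and lowered 3 with FOXA1 siRNA, with medians of 0.71 and 0.46, where between 29.0% and 30.5% of all genes were called in each direction. FOXA1 siRNA raised 5 of 11 and lowered 3 in DMSO, and raised 4 of 12 and lowered 5 in lapatinib, with medians of 0.21 and -0.24, where all genes gave between 21.3% and 22.7% in each direction. The 3 of 12 lower after lapatinib with FOXA1 siRNA and the 3 of 11 lower after FOXA1 siRNA in DMSO were near the shares of all genes in the same comparisons. FKBP5, a glucocorticoid responsive co-chaperone, fell after lapatinib by 1.68 with NT siRNA (SE 0.11, adjusted p = 8.56e-06) and by 1.63 with FOXA1 siRNA (SE 0.06, adjusted p = 2.09e-06). SERHL2 rose by 1.04 after lapatinib with NT siRNA (SE 0.17, adjusted p = 0.000795) and by 0.61 with FOXA1 siRNA (SE 0.11, adjusted p = 0.00174). GGT1 (gamma-glutamyltransferase) rose after FOXA1 siRNA by 1.04 in DMSO (SE 0.12, adjusted p = 0.000433) and 1.13 in lapatinib (SE 0.07, adjusted p = 1.2e-05). TFAP2B, a transcription factor, rose by 1.31 after FOXA1 siRNA in lapatinib (SE 0.28, adjusted p = 0.00612) and by 0.58 in DMSO (SE 0.19, adjusted p = 0.0408).

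Of 15 estrogen response genes, between 11 and 13 passed the filter. Lapatinib raised 5 of 12 and lowered 3 with NT siRNA and raised 5 of 13 and lowered 2 with FOXA1 siRNA at an adjusted p under 0.05, with medians of 0.35 and 0.16, against 30.5% higher and 29.2% lower of all genes with NT siRNA and 29.0% and 29.1% with FOXA1 siRNA. FOXA1 siRNA raised 0 of 13 and lowered 3 in DMSO, and raised 1 of 11 and lowered 3 in lapatinib, with medians of 0.07 and 0.09, against 21.9% higher and 21.3% lower of all genes in DMSO and 22.7% and 22.2% in lapatinib. The counts lowered by FOXA1 siRNA were near those shares. XBP1, a transcription factor of secretory capacity in the endoplasmic reticulum, had normalized counts between 25520 and 28530 in NT DMSO, 59080 and 75810 in NT lapatinib, 9458 and 11110 in FOXA1-siRNA DMSO, and 21730 and 27220 in FOXA1-siRNA lapatinib. Lapatinib raised XBP1 by 1.34 with NT siRNA (SE 0.09, adjusted p = 1.05e-05) and by 1.18 with FOXA1 siRNA (SE 0.10, adjusted p = 2.74e-05). FOXA1 siRNA lowered it, with log2 fold changes of -1.36 in DMSO (SE 0.07, adjusted p = 1.36e-05) and -1.53 in lapatinib (SE 0.11, adjusted p = 3.1e-05).

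Among 15 other disulfide isomerases, the enzyme family of AGR2, 14 passed the filter. Lapatinib lowered 9 and raised 2 with NT siRNA and lowered 8 and raised 2 with FOXA1 siRNA at an adjusted p under 0.05, with medians of -0.18 and -0.21, where 29.2% and 29.1% of all genes were called lower and 30.5% and 29.0% higher. FOXA1 siRNA lowered 6 and raised 2 in DMSO and lowered 5 and raised 3 in lapatinib, with medians of -0.11 and -0.06, where 21.3% and 22.2% of all genes were called lower and 21.9% and 22.7% higher. ERP27 was the one called in a comparison at the fold minimum. It had normalized counts of 127.1, 104.1 and 130.4 in NT DMSO and 260.4, 278.3 and 213.4 in NT lapatinib, and of 63.95, 63.27 and 74.24 in FOXA1-siRNA DMSO and 117.8, 121.1 and 108.5 in FOXA1-siRNA lapatinib. ERP27 rose by 1.08 after lapatinib with NT siRNA (SE 0.15, adjusted p = 0.000326) and was lower by a log2 fold change of -1.12 after FOXA1 siRNA in lapatinib (SE 0.13, adjusted p = 0.000309). Below the fold minimum it also rose after lapatinib with FOXA1 siRNA (0.79, SE 0.14, adjusted p = 0.00141) and fell after FOXA1 siRNA in DMSO (-0.83, SE 0.15, adjusted p = 0.00321).

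The genes most alike to each member over the 12 samples were found by Pearson r of log2 normalized counts among 10811 genes with a mean of at least 100 normalized counts. These are descriptions, since the samples share groups and replicate numbers. AGR2 was most like C3orf57 (r = 0.987), CYFIP1 (0.985) and TXNRD2 (0.983). TFF1 was most like DHX16 (0.981), TBC1D10B (0.981) and LOC653566 (0.978), and TFF3 like IFFO2 (0.966), PECI (0.961) and GMPPA (0.956). For AZGP1 the genes were RHBDF1 (0.955), FCHSD1 (0.952) and MAP3K10 (0.945). For SCGB2A2 they were PDK4 (0.987), a kinase that inhibits pyruvate dehydrogenase, CAPN13 (0.981) and LMTK3 (0.98). CLU was most like RHOU (0.997), SMPDL3A (0.995) and FTL (0.995), the ferritin light chain. No member was among the 3 most alike genes of another member. PIP and MUCL1 had means under 100 normalized counts and were not searched.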

How the data were processed

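RNAseq files of 12 libraries of SKBR-3 cells were used. The authors deposited an expected count per gene, an estimated number of reads that need not be whole, for 20531 genes, with TPM, FPKM and a signal scaled to the upper quartile of each library. The methods name STAR, Salmon and hg38, the submitters' notes name RSEM, and strand use in counting is not given in the sources used here. The authors' FPKM values were not used.

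Expected counts were rounded and tested with edgeR 4.0.16 (quasi-likelihood, TMM, R 4.3.3), on genes that reached 10 counts in some sample, with the 6 samples of each comparison or all 12 for the interaction. Thresholds were an adjusted p of 0.05 (Benjamini-Hochberg) and a log2 fold change of 1, with no fold minimum for the interaction. Standard errors were derived from the F statistics. Normalized counts are counts over TMM-scaled library sizes at the mean depth. Libraries with the same replicate number deviated together from their group means (mean correlation 0.427, range 0.267 to 0.696 over 18 pairs and 10812 genes). For different numbers the mean was -0.199, which is not a separate contrast, since the deviations within a group cancel. The replicate numbers were used as a block in an alternative fit, and the labels do not say what they mark. Genes and lists were chosen with earlier results of these data known: the named list genes are up to 4 per list and comparison with the largest change among those called with a mean of at least 100 normalized counts; FOXA1, ESR1, CDH1, SCGB1D2 and SCGB2A1 are named beside them, and one further gene of that rule is not reported here. The procedure was run on simulated counts for lapatinib with NT siRNA and for the interaction only. The simulation held no shared effect of replicate number, so it cannot show how the tests behave with one. Promoters and coordinates are from RefSeq (GRCh38.p14), matched by Entrez gene identifier.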

Additional observations from a re-analysis of the deposited data

Results flagged for a closer look

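The lapatinib response of PIP differed between FOXA1-siRNA and NT cells by -1.93 on the log2 scale (edgeR's quasi-likelihood test of the interaction, adjusted p = 0.0148), and by -1.94 with the replicate number as a block (adjusted p = 0.00188). With the block, the responses of AGR2 and AZGP1 also differed, by -0.45 (adjusted p = 0.00284) and -0.61 (adjusted p = 0.00223). The share of all genes that passed with the block was not counted. Groups of 3 libraries were not searched for single outlying values.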

How the results depend on the processing

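Counts and log2 fold changes were recomputed with RLE and upper-quartile scaling, DESeq2, no filter, at least 10 counts in every sample, the replicate block, all 12 samples in one model and without each library in turn, and, chosen after seeing the data, with replicates 1 and 3 of each group. Of the recomputed counts 242 equaled the reported count or stayed within 1.5 times it, 16 were higher and 4 lower. The 242 include reported counts of 0 that stayed at 0. Of the recomputed changes of single genes 546 kept direction and side of the adjusted p threshold of 0.05. Of the rest, 23 newly passed it, 13 no longer passed it and 18 turned direction. The fold minimum had no part in this second tally, so TFF1 and TFF3 changes that fell below it were counted as kept. Shares of all genes were counted only in the reported fits. RLE, upper-quartile scaling and both filters on low counts moved none of the 8 genes that passed the filter across the adjusted p threshold; with no filter AGR3 was also tested and was called higher after lapatinib with NT siRNA (adjusted p = 0.0463).

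With the replicate block, 2 members rose after FOXA1 siRNA in DMSO with no fold minimum (1 without it), 2 fell after lapatinib with FOXA1 siRNA (0 without it; 1 by DESeq2 and 1 in the model of all 12), and 3 had a lower response in the interaction (1 without it); beyond these it added PIP as lower after FOXA1 siRNA in DMSO and AZGP1 as higher after lapatinib with FOXA1 siRNA and changed no other call. Replicates 1 and 3 alone gave 4 called higher after lapatinib with NT siRNA, 2 higher after FOXA1 siRNA in DMSO and 1 lower after lapatinib with FOXA1 siRNA with no fold minimum, and 1 higher and 2 lower in the interaction; the changes of TFF3 after lapatinib with NT siRNA (0.062), AZGP1 after FOXA1 siRNA in DMSO (0.076) and TFF1 in the interaction (-0.021) turned direction. The cause was not tested.

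Without each library in turn, the number called was 1 to 3 higher after lapatinib with NT siRNA, 0 to 1 higher and 2 to 4 lower after FOXA1 siRNA in DMSO, and 2 to 4 lower after FOXA1 siRNA in lapatinib. With no fold minimum it was 3 to 5 higher after lapatinib with NT siRNA, 1 to 2 higher after FOXA1 siRNA in DMSO, and 2 to 5 higher and 0 to 1 lower after lapatinib with FOXA1 siRNA. Changes that turned direction, none of them called, were TFF3 after lapatinib with NT siRNA (-0.25 to 0.18) and with FOXA1 siRNA (-0.17 to 0.056) and in the interaction (-0.25 to 0.21), AZGP1 after FOXA1 siRNA in DMSO (-0.31 to 0.34), MUCL1 after FOXA1 siRNA in lapatinib (-0.29 to 0.080), and SCGB2A2 in the interaction (-0.02 to 0.97).

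The ratios of group means from the deposited TPM and upper-quartile values moved by less than the spread between replicates in all 64 cases. With 13 counts in all for AGR3 and 10 for LTF, depth limits these 2 genes, and their changes were tested only with no filter, where AGR3 had an adjusted p of 0.0612 and LTF of 0.107 after FOXA1 siRNA in lapatinib.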
